A study of Mus musculus with 6 samples.

Results

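Committed oligodendrocyte precursors (COP) were studied as the barcodes of 6 mouse hippocampal single-cell RNA libraries that carried a panel of 4 genes of that stage, Enpp6, Gpr17, Bmp4 and Bcas1. A barcode was a member when its panel UMIs (unique molecular identifiers, each 1 captured transcript) summed to at least 3 from at least 2 of the genes, when Enpp6 and Gpr17 together gave at least 2, and when the sum exceeded that of the neuron genes Rbfox3, Syt1 and Snap25. Of 44736 barcodes kept after quality filters, 170 met this rule.

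Oligodendrocyte precursor cells (OPC) persist in the adult hippocampus and either divide or differentiate into myelinating oligodendrocytes. COP are the short-lived step between these states: the cell leaves the division cycle, loses the growth factor receptor PDGFRA, and grows processes before it makes compact myelin. GPR17, a G protein-coupled receptor that holds back maturation, BMP4, a secreted differentiation inhibitor, ENPP6, a choline phosphodiesterase of newly forming oligodendrocytes, and BCAS1, a protein of cells that are beginning to myelinate, mark successive and overlapping parts of that step.

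Per the labels, hippocampi came from mice aged 6 months in 3 groups with 2 samples each: 5×FAD mice given Aβ3FTnAu (5×FAD-Aβ3FTnAu), 5×FAD mice given PBS (5×FAD-PBS), and wild-type littermates given PBS (WT-PBS). The 5×FAD line carries human transgenes with familial Alzheimer's disease mutations, driven by a neuronal promoter, and builds up amyloid-β plaques. Aβ3FTnAu is, by the title of the series, a protein nanostructure with gold that targets them. Separate animals behind the 2 samples of each group are not stated in the sources, so p-values measure the spread between these samples, which may be technical.

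The libraries held 5196 to 14993 deposited barcodes and 32528417 to 76780861 UMIs each, and 4823 to 13640 barcodes were kept, with median depths of 4236 to 5256 UMIs. Barcodes without any mitochondrial UMI made up 65.9% and 64.3% of kept barcodes in 5×FAD-Aβ3FTnAu, 22.5% and 17.4% in 5×FAD-PBS, and 56.4% and 29.2% in WT-PBS. Among COP barcodes these shares were 76.5% and 72.0%, 27.6% and 11.9%, and 47.7% and 23.1% in the same group order. This share moved with the groups, and its part in the group results below was not tested. Of 230 barcode sequences found in more than 1 library, 4 belonged to a COP barcode, and 0 were shared among COP.

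COP barcodes had a median of 2246.5 UMIs (1021 to 12480) and 1278.5 genes. Bcas1 was detected in 168 of the 170, Enpp6 in 138, Gpr17 in 77 and Bmp4 in 48. The members were chosen by these panel UMIs, whose values are a description only. The panel sum had a median of 6 (interquartile range 4 to 15, highest 57), with 30 barcodes at the minimum of 3, 33 at 4 and 47 at 15 or more. Just outside the rule lay 130 barcodes with a single Enpp6 or Gpr17 UMI, of which 65 fell in the mature oligodendrocyte class and 21 in the OPC class. Another 62 failed only the neuron condition, with a median of 24033.5 UMIs and 79 UMIs of the neuron genes, 13 carried 1 panel gene alone, and 1 had a sum of 2.

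Background from free RNA, read from the neurons, was low for Enpp6 and Gpr17. After each barcode was thinned to 1000 UMIs, Enpp6 was seen in 61.2% of COP, 0.266% of OPC, 8.03% of mature oligodendrocytes and 0.249% of neurons. Gpr17 was seen in 31.2%, 8.64%, 0.299% and 0.114% of the same classes. Bcas1 was less restricted to COP, at 82.9%, 25.8%, 41.9% and 0.761%. In microglia Enpp6 and Gpr17 were seen in 1.32% and 0.439%, above the neurons, and in astrocytes in 0.209% and 0.105%. The shares in COP follow from the rule that chose the barcodes. Without thinning, the shares in COP were 81.2% for Enpp6 and 45.3% for Gpr17, against 1.38% and 0.485% in neurons, whose median depth of 5161 UMIs was above that of COP. The mean CPM (UMI counts scaled to the same total per sum, over the 6 samples) of Enpp6 was 989 in COP, 2.94 in OPC and 81.2 in mature oligodendrocytes.

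The members fell into 3 kinds by their Gpr17 and Enpp6 UMIs. There were 32 barcodes with Gpr17 alone, 45 with both genes and 93 with Enpp6 alone. Barcodes with both genes had the highest median panel sum, 17 UMIs, and 27 of them (60%) carried Bmp4, a gene not used in the split. Barcodes with Gpr17 alone had a median panel sum of 5 and Bmp4 in 6 of 32, and barcodes with Enpp6 alone had a median of 4 and Bmp4 in 15 of 93. Their median depths were 1914 UMIs with Gpr17 alone, 3253 with both and 1978 with Enpp6 alone. The kinds are ranges cut by counts near 1 UMI, not types: 20 members had exactly 1 Gpr17 UMI and 11 had exactly 1 Enpp6 UMI.

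The label fitted the members in part. The rule for mature oligodendrocytes (Mog, Mag, Mobp and Opalin) was also met by 64 of the 170 (37.6%), and 57 of those 64 carried Enpp6 alone. The OPC rule (Pdgfra, Cspg4, Vcan and Pcdh15) was also met by 15, of which 12 carried Gpr17 alone. Both rules were met by 2 barcodes and neither by 93. Among the Enpp6-only barcodes, the 18 with a panel sum of 15 or more held 2 that met the mature rule, against 55 of the 75 with a lower sum. Pooled over barcodes, the mature panel stood at 389 CPM in the 18 and 2775 CPM in the 75. In the 32 barcodes with Gpr17 alone the OPC panel stood at 5041 CPM, near the 5986 CPM of the OPC class, against 1454 CPM with both genes and 638 CPM with Enpp6 alone. COP below therefore means a barcode that met the panel rule. The mature panel goes against the name for the Enpp6-only barcodes with a low panel sum, and the OPC panel for those with Gpr17 alone.

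The first comparison asked which genes other than the markers set COP apart from the stages before and after it. The UMIs of each class were added up within each sample and entered 1 edgeR quasi-likelihood model with the sample as a block, over 6412 genes and without the 15 genes that chose barcodes. COP sums held 31529 to 111182 UMIs, OPC sums (752 barcodes in all) 145502 to 721578, and mature oligodendrocyte sums (2677 barcodes) 279370 to 1124593. Against OPC, 861 genes rose in COP (13.4%) and 956 fell (14.9%) at a Benjamini-Hochberg adjusted p under 0.05. Against mature oligodendrocytes 916 rose (14.3%) and 901 fell (14.1%). Genes highest in COP, above both neighbours, numbered 249 (3.88%), and 164 of these were higher in all 6 samples against both classes. Genes lowest in COP numbered 93 (1.45%), those rising from OPC through COP to mature cells 327 (5.10%), and those falling 314 (4.90%).

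**Figure D1:**
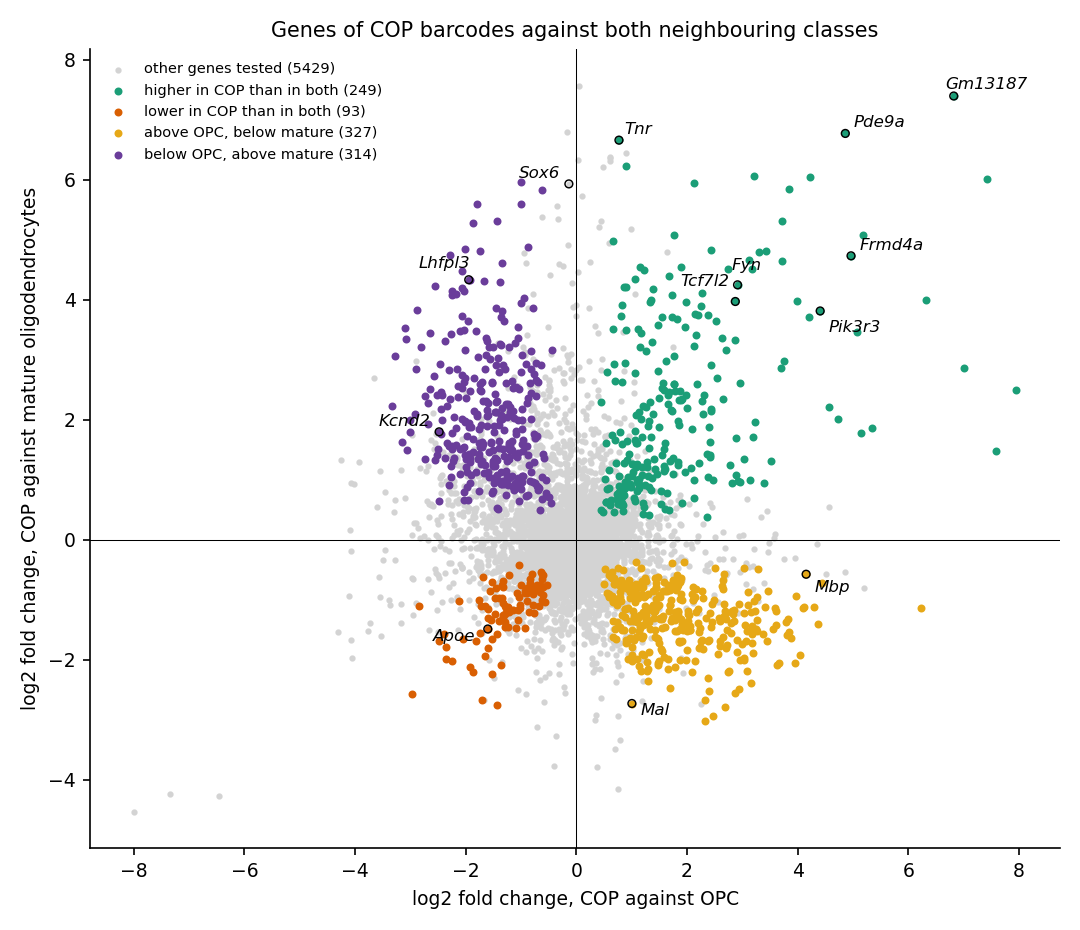
Log2 fold change of COP over OPC (x axis) against log2 fold change of COP over mature oligodendrocytes (y axis) for the 6412 tested genes, each point 1 gene, coloured by its pattern across the 3 classes. Genes highest in COP fill the upper right, with Gm13187 at 6.82 and 7.40 and Frmd4a at 4.97 and 4.73.

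Genes highest in COP were led by transcripts of a locus on chromosome 2. Frmd4a (2: 4017717 to 4614043, GRCm38), a scaffold protein of cell polarity, had 3679 to 12135 CPM in COP (median 5902), against 137 to 279 in OPC and 130 to 336 in mature oligodendrocytes. Every COP sample lay above every sample of both neighbours, by log2 4.97 ± 0.20 (SE) over OPC (edgeR adjusted p = 1.34e-20) and 4.73 ± 0.19 over mature cells (adjusted p = 8.74e-21). The non-coding Gm13187 (2: 4287595 to 4301167), which lies within Frmd4a on the other strand, had 391 to 6055 CPM in COP (median 1208), against medians of 9.60 CPM in OPC and 2.41 in mature cells (log2 6.82 ± 0.34 and 7.40 ± 0.31). Gm36988, also within Frmd4a, had 71 UMIs in COP against 1 in OPC, a ratio of 297 (exact 95% interval 51.7 to 11907). How the counting treated strand is not stated, so reads of overlapping genes cannot be told apart. The same holds for Gm45600, antisense within the rule gene Enpp6, with 47 UMIs in COP and 0 in OPC.

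Signalling genes known from premyelinating cells followed. Fyn, the Src-family kinase that couples axon contact to process outgrowth, had 1565 to 2873 CPM in COP (median 2228), against 221 to 509 in OPC and 80.1 to 147 in mature cells (log2 2.91 ± 0.18 and 4.25 ± 0.18). Tcf7l2 (19: 55741820 to 55933654), the Wnt effector transcription factor of newly formed oligodendrocytes, had 920 to 2181 CPM in COP, against 94.7 to 202 in OPC and 52.6 to 86.4 in mature cells. Its log2 fold changes were 2.87 ± 0.19 and 3.97 ± 0.19 (edgeR adjusted p = 9.56e-15 and 2.54e-19). For both genes the classes did not overlap in any sample. Pik3r3, a regulatory subunit of PI3 kinase, had 978 to 2309 CPM in COP, against at most 81.8 in OPC and at most 236 in mature cells. Pde9a, a cyclic GMP phosphodiesterase, had 63.4 to 257 CPM in COP, against at most 9.30 and 3.07.

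The list of 30 premyelinating genes, chosen with earlier results of these data known, had 27 tested members. Of these, 25 rose and 1 fell against OPC (median log2 2.87, against -0.04 over all tested genes), 24 rose and 0 fell against mature cells (median 2.22, against -0.07), and 24 were highest in COP. Over all tested genes 13.4% rose and 14.9% fell against OPC, 14.3% rose and 14.1% fell against mature cells, and 3.88% were highest in COP. Besides those above they included Cnksr3 (log2 3.70 ± 0.32 over OPC, 2.87 ± 0.26 over mature cells), a scaffold of Ras signalling, Tns3 (2.44 ± 0.18 and 2.92 ± 0.17), a focal adhesion protein, and Ust (2.25 ± 0.16 and 3.90 ± 0.17), which sulfates chondroitin and dermatan chains. Itpr2, the inositol trisphosphate receptor whose transcript is widely used to mark this stage, stood at a median of 839 CPM in COP, 377 in OPC and 35.7 in mature cells (log2 1.22 ± 0.17 and 4.49 ± 0.20). Nfasc, the adhesion protein that organises the paranode, had medians of 2217, 179 and 711 CPM (log2 3.51 ± 0.18 and 1.31 ± 0.16).

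OPC genes were lower in COP than in OPC but still above mature cells. Of 26 tested members of that list, 19 fell and 2 rose against OPC (median log2 -1.79), and 21 rose and 0 fell against mature oligodendrocytes (median 3.73), with 15 falling from OPC to COP and again to mature cells. Among all tested genes 14.9% fell and 13.4% rose against OPC, 14.3% rose and 14.1% fell against mature cells, and 4.90% fell at both steps. Lhfpl3 had 1235 to 2243 CPM in COP, against 5477 to 7392 in OPC and 39.9 to 107 in mature cells (log2 -1.94 ± 0.17 and 4.33 ± 0.20). Xylt1, which starts glycosaminoglycan chains, changed by -2.06 ± 0.19 and 3.74 ± 0.23, and Nxph1, a neurexin ligand, by -2.25 ± 0.23 and 4.08 ± 0.28. The extracellular matrix gene Tnr was an exception and was highest in COP, at 4398 to 9287 CPM, against 2436 to 4866 in OPC and 28.9 to 89.5 in mature cells (log2 0.77 ± 0.17 and 6.66 ± 0.22). Sema5a, a semaphorin, was the other exception (1.55 ± 0.20 and 3.72 ± 0.21). The transcription factor gene Sox6 stood at medians of 1687 CPM in COP and 1843 in OPC and did not pass the test between them (log2 -0.13 ± 0.20, adjusted p = 0.705), while it was 5.93 ± 0.26 above mature cells.

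Of ion channel and transmitter receptor genes all 30 were tested, of which 18 fell and 2 rose against OPC (median log2 -1.17) and 13 rose and 1 fell against mature cells (median 0.60), with 9 falling at both steps. The shares over all tested genes were 14.9% and 13.4% against OPC, 14.3% and 14.1% against mature cells, and 4.90% at both steps. Kcnd2, an A-type potassium channel, had 474 to 1364 CPM in COP, against 3850 to 4521 in OPC and 139 to 317 in mature cells. Grm5, a metabotropic glutamate receptor, had medians of 414 CPM in COP, 1358 in OPC and 157 in mature cells. Gria2, the AMPA receptor subunit that limits calcium entry, was not called against OPC (log2 0.39 ± 0.17, edgeR adjusted p = 0.0824) and was 2.39 ± 0.18 above mature cells.

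Myelin genes lay between the neighbours. Of 25 tested members 22 rose and 0 fell against OPC (median log2 2.22), 0 rose and 23 fell against mature oligodendrocytes (median -1.49), and 20 rose at both steps from OPC through COP to mature cells. For all tested genes the shares were 13.4% and 14.9% against OPC, 14.3% and 14.1% against mature cells, and 5.10% at both steps. Mbp, myelin basic protein, had 1294 to 4020 CPM in COP (median 2968), against 66.5 to 261 in OPC and 2199 to 5144 in mature cells. It was 4.15 ± 0.17 above OPC and 0.58 below mature cells (log2 -0.58 ± 0.14), lower in 6 of 6 samples, although the ranges of COP and mature cells overlapped. Larger differences from mature cells than that of Mbp were found for Car2, carbonic anhydrase 2 (-1.89 ± 0.19), for Aspa, aspartoacylase (-2.19 ± 0.21), for Mal, a compact myelin proteolipid (-2.73 ± 0.22), and for Ptgds, prostaglandin D synthase (-3.00 ± 0.22), which was not called against OPC (0.33 ± 0.25, adjusted p = 0.379). Since some members also met the mature rule, these levels mix barcodes with and without that panel.

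Of 22 tested transcription factors of the lineage, 10 rose and 6 fell against OPC (median log2 0.51) and 8 rose and 4 fell against mature cells (median 0.26). All tested genes rose in 13.4% and fell in 14.9% of cases against OPC, and in 14.3% and 14.1% against mature cells. Myrf, the activator of myelin genes, had 63.4 to 198 CPM in COP, against 6.87 to 31.6 in OPC (log2 2.83 ± 0.32) and 114 to 193 in mature cells, from which it did not differ by the test (-0.32 ± 0.21, edgeR adjusted p = 0.291). Sox10, the factor that defines the whole lineage, passed neither test (0.32 ± 0.19, adjusted p = 0.225, and 0.18 ± 0.18, adjusted p = 0.534). Nkx2-2, a homeodomain factor of early differentiation, was above OPC by 0.92 ± 0.29 and above mature cells by 1.65 ± 0.28. Sox4 was above them by 1.06 ± 0.39 and 4.34 ± 0.48. Olig2 fell by 1.36 ± 0.36 on the log2 scale against OPC (adjusted p = 0.00355), and Sox5 and Myt1 fell by 1.81 ± 0.19 and 1.35 ± 0.23 against OPC and stood above mature cells by 3.48 ± 0.24 and 4.62 ± 0.37.

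Signalling genes of the Notch, BMP and Wnt pathways were called about as often as all tested genes, of which 28.3% were called against each neighbour. Of 16 tested, 1 rose and 3 fell against OPC (median log2 -0.22) and 3 rose and 1 fell against mature cells (median 0.32). Smad7, an inhibitor of BMP and TGF-β signalling, was above OPC (1.55 ± 0.25) and below mature cells (-1.47 ± 0.19). Notch1 was at a median of 13.5 CPM in COP, 63.9 in OPC and 4.97 in mature cells (-1.60 ± 0.51, adjusted p = 0.0143, and 2.08 ± 0.70, adjusted p = 0.0223). Lgr5, an R-spondin receptor gene of the Wnt pathway, had 50 UMIs in COP and 1 in mature cells, a ratio of 486 (exact 95% interval 83.3 to 19567), and did not pass against OPC (log2 0.04 ± 0.28, adjusted p = 0.943).

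Cytoskeletal and process outgrowth genes were divided. Of 24 tested, 12 rose and 2 fell against OPC (median log2 0.54), and 10 rose and 8 fell against mature cells (median 0.34). Across all tested genes 13.4% rose and 14.9% fell against OPC, and 14.3% rose and 14.1% fell against mature cells. Map1b, a microtubule protein of growing processes, was highest in COP, at 571 to 1535 CPM against at most 178 in OPC and 121 in mature cells. Mapt, tau, rose at both steps (1.88 ± 0.16 over OPC, -0.68 ± 0.15 against mature cells). Among 28 cell cycle genes only Ccnd1, cyclin D1, had enough counts to be tested, with 3 UMIs in COP and 138 in OPC, 11-fold lower in COP (exact 95% interval 3.68 to 53.9).

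Genes of cholesterol and myelin lipid synthesis were called about as often as all tested genes, of which 28.3% were called against each neighbour. Of 15 tested, 4 rose and 0 fell against OPC (median log2 0.42) and 0 rose and 4 fell against mature cells (median -0.53), among them Fa2h, fatty acid 2-hydroxylase (1.81 ± 0.22 and -0.83 ± 0.17). Of 15 tested genes of disease-associated oligodendrocytes, 4 rose and 3 fell against OPC and 1 rose and 7 fell against mature cells. Of these, C4b, complement C4, had a median of 52.4 CPM in COP, 41.5 in OPC and 197 in mature cells (against mature cells -1.66 ± 0.26, adjusted p = 2.85e-06). In the iron handling list 6 genes were tested, of which 1 rose and 0 fell against OPC and 1 rose and 2 fell against mature cells. Trf, transferrin, was the one above OPC (2.65 ± 0.28) and was below mature cells (-1.63 ± 0.22). Of 4 tested dissociation and heat shock genes, 0 were called against OPC and 4 fell against mature cells. Apoe, the lipid carrier abundant in astrocytes and microglia, was lower in COP than in OPC (-1.60 ± 0.20) and than in mature cells (-1.49 ± 0.20).

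Markers of other cell types were low in COP. Without the genes of the rule, the neuron list summed to 410 and 317 CPM in 5×FAD-Aβ3FTnAu, 856 and 989 in 5×FAD-PBS, and 680 and 317 in WT-PBS. In the same order the astrocyte list gave 103 and 111, 231 and 234, and 326 and 222 CPM, and the microglia list 308 and 332, 335 and 288, and 186 and 285 CPM. Of the 5 neuron markers tested, 2 fell and 0 rose against OPC and 0 were called against mature cells. Both astrocyte markers tested fell against OPC. Of 7 microglia markers 0 were called against OPC and 6 fell against mature cells. In COP, 4 of 8 endothelial and mural markers and 3 of 4 choroid plexus and ependymal markers were at 0.

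**Figure D2:**
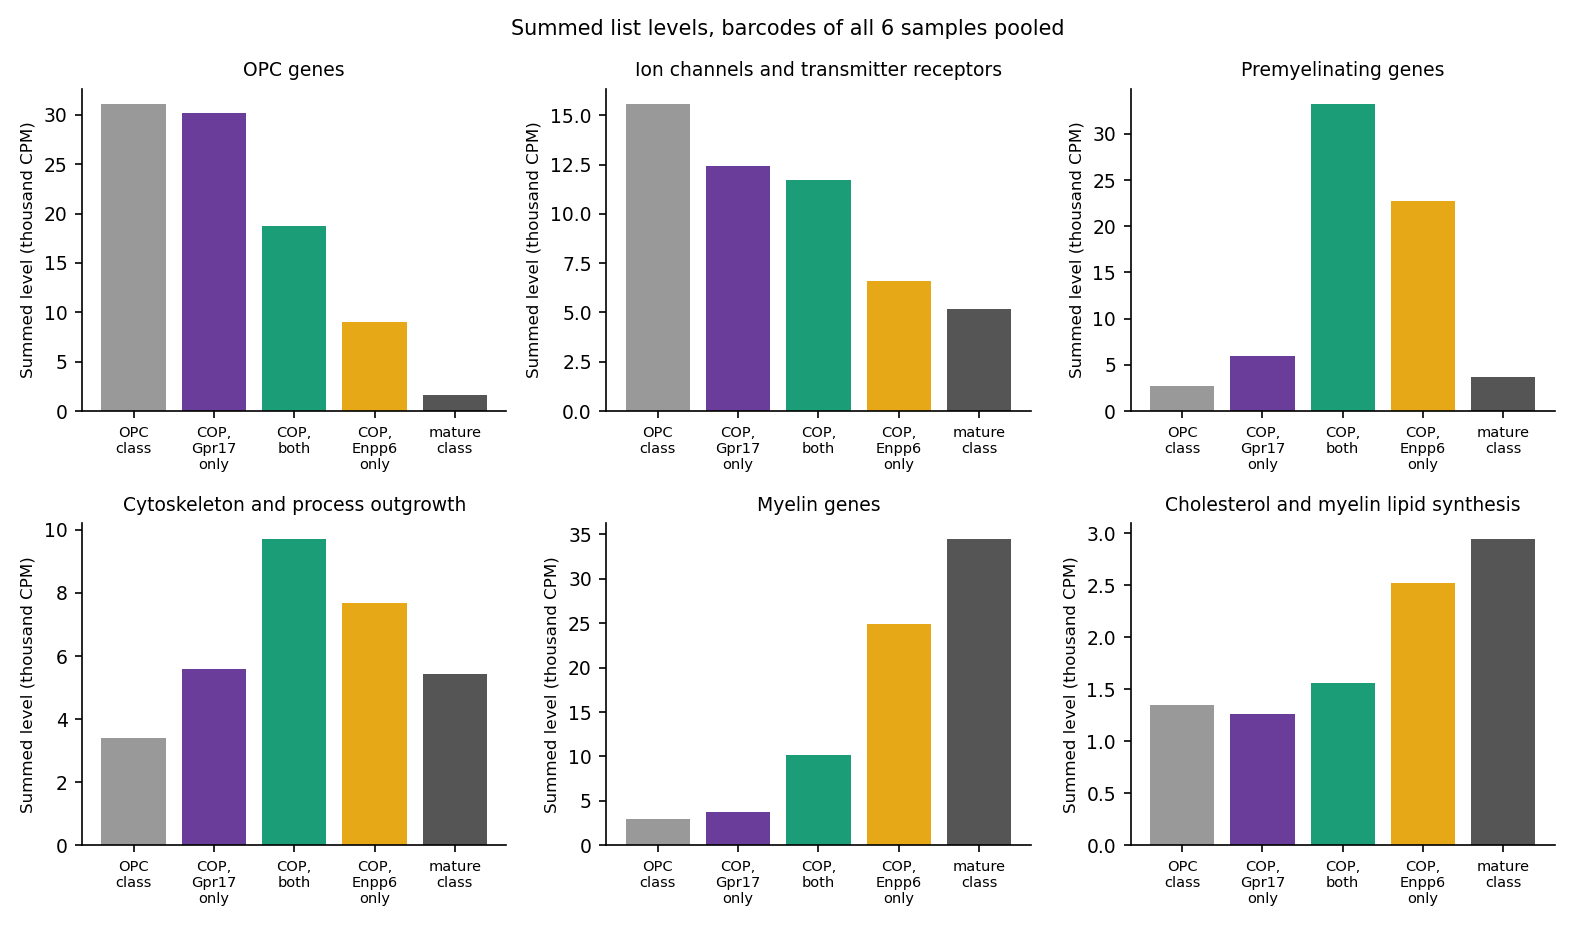
Summed CPM divided by 1000 (y axis, linear) of 6 gene lists pooled over the barcodes of the OPC class, the 3 kinds of COP barcode and the mature oligodendrocyte class (x axis), 1 panel a list. The OPC list is at 30205 CPM with Gpr17 alone and 9052 with Enpp6 alone, the premyelinating list is highest in barcodes with both genes at 33192 CPM, and the myelin list is at 24906 CPM with Enpp6 alone and 34509 in mature cells. The OPC and myelin sums include genes of the rules that set the classes.

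Within COP the kinds differed along the same lists. The summed OPC list stood at 30205 CPM with Gpr17 alone, 18710 with both genes and 9052 with Enpp6 alone, beside 31049 in the OPC class and 1611 in mature cells. Myelin genes took the opposite course, at 3747, 10169 and 24906 CPM beside 2949 in OPC and 34509 in mature cells. The premyelinating list had its highest value in barcodes with both genes, 33192 CPM, against 5961 with Gpr17 alone, 22737 with Enpp6 alone, 2762 in OPC and 3673 in mature cells. Frmd4a had 12 UMIs (160 CPM) with Gpr17 alone, 1275 (8134 CPM) with both and 1314 (6347 CPM) with Enpp6 alone. Tcf7l2 stood at 320, 1761 and 1068 CPM. The lists were summed over all their members, among them genes of the class rules, such as Pdgfra and Pcdh15 (OPC list) and Mog and Mag (myelin list). The OPC marker panel alone stood at 5986 CPM in the OPC class. Part of the nearness to a class therefore follows from the rules. These sums are pooled over samples and rest on 74987, 156757 and 207016 UMIs, and are a description without a test. They mix kind with group, since barcodes with Gpr17 alone numbered 1 and 0 in 5×FAD-Aβ3FTnAu, 4 and 4 in 5×FAD-PBS, and 18 and 5 in WT-PBS. The 18 Enpp6-only barcodes with a panel sum of 15 or more had 43807 CPM of premyelinating and 12949 CPM of myelin genes, whereas the 75 with a lower sum had 13239 and 30297 CPM.

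A test over samples was possible for barcodes with any Gpr17 UMI against those with Enpp6 alone, a contrast added after seeing the data. It used all 6 samples as blocks and 1059 genes. The split used Gpr17 and Enpp6 UMIs, which also chose the members, so the contrast describes how members vary. The mature rule was met by 57 of the 93 Enpp6-only barcodes, 6 of the 45 with both genes and 1 of the 32 with Gpr17 alone. Differences in myelin genes are not independent of that. With any Gpr17, 128 genes were higher (12.1%) and 193 lower (18.2%), 30.3% in all. Of 10 tested OPC genes 8 were higher and 0 lower (median log2 1.94, against -0.05 over all genes), and of 19 myelin genes 0 were higher and 17 lower (median -2.32). Brinp3 had 646 to 3604 CPM with any Gpr17 and 0 to 634 with Enpp6 alone (3.19 ± 0.51, edgeR adjusted p = 0.000147). Fgf14, a modulator of sodium channels, was higher by 3.0 ± 0.42, and Lhfpl3 by 2.79 ± 0.45. Of 13 transcription factors, 4 were higher, among them Sox5 (2.12 ± 0.41), Sox6 and Myt1, and 1 was lower, Zfp536. Of 11 ion channel and receptor genes 4 were higher and 0 lower.

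Several genes of later oligodendrocytes had few or no UMIs in Gpr17-positive barcodes. They were counted in the same contrast, in which 57 of the 93 Enpp6-only barcodes met the mature rule. Anln, a septin-assembly protein of mature myelin, had 0 UMIs with any Gpr17 and 79 with Enpp6 alone, at least 29.5-fold lower with the group's floor set at 3 counts. Ermn, which encodes the cytoskeletal protein ermin, had 0 and 54 UMIs (at least 20.2-fold lower), and Prr5l, a component of mTORC2, had 3 and 321 UMIs (120-fold lower, exact 95% interval 40.6 to 584). Car2 had 3 and 124 UMIs (46.3-fold lower, 15.5 to 227) and Aspa 3 and 121 (45.2-fold lower, 15.1 to 222). Mbp differed less, at 672 to 2334 CPM with any Gpr17 and 2387 to 5410 with Enpp6 alone (-1.52 ± 0.33, edgeR adjusted p = 0.00174), without overlap between the ranges. Trf was lower by 4.39 on the log2 scale (-4.39). Of 19 premyelinating genes, by contrast, 0 were higher and 1, the fatty acid elongase Elovl7, was lower (-1.31 ± 0.40, adjusted p = 0.0169). Tcf7l2 differed by 0.18 and did not pass.

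Turning to the groups, COP made up 17 of 6945 and 25 of 5819 kept barcodes in 5×FAD-Aβ3FTnAu, 29 of 4823 and 42 of 7843 in 5×FAD-PBS, and 44 of 13640 and 13 of 5666 in WT-PBS. As shares, the 5×FAD-Aβ3FTnAu samples had 0.245% (exact Clopper-Pearson 95% interval 0.143 to 0.392) and 0.430% (0.278 to 0.634). The 5×FAD-PBS samples had 0.601% (0.403 to 0.862) and 0.536% (0.386 to 0.723), and the WT-PBS samples 0.323% (0.234 to 0.433) and 0.229% (0.122 to 0.392). Both 5×FAD-PBS samples lay above both WT-PBS samples and above both 5×FAD-Aβ3FTnAu samples. Means were 0.337% ± 0.131, 0.568% ± 0.0465 and 0.276% ± 0.0659 (SD, n = 2 each). Intervals cover counting error only. With every barcode thinned to 1000 UMIs, the rule was met by 8 and 5 barcodes in 5×FAD-Aβ3FTnAu, 10 and 15 in 5×FAD-PBS, and 18 and 2 in WT-PBS.

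No difference in share passed the test. In an edgeR quasi-likelihood fit over 8 barcode classes, 5×FAD-Aβ3FTnAu differed from 5×FAD-PBS by log2 -0.76 ± 0.47 (adjusted p = 0.170) and from WT-PBS by 0.24 ± 0.48 (adjusted p = 0.729), and 5×FAD-PBS differed from WT-PBS by 0.99 ± 0.46 (adjusted p = 0.135). Exact two-sided permutation tests gave p = 0.333, 0.667 and 0.333 for the same pairs, and 0.333 is the smallest that 2 against 2 samples allow. Of the barcodes that met the COP, OPC or mature rule, COP were 6.05% and 5.81% in 5×FAD-Aβ3FTnAu, 5.07% and 4.80% in 5×FAD-PBS, and 4.59% and 2.69% in WT-PBS. On that denominator the sign between 5×FAD-Aβ3FTnAu and 5×FAD-PBS turned (log2 0.26 ± 0.33, adjusted p = 0.526). Without the 5×FAD-Aβ3FTnAu sample 2, the value against WT-PBS was -0.22. Members that met neither the OPC nor the mature rule were 0.216% and 0.275% in 5×FAD-Aβ3FTnAu, 0.332% and 0.179% in 5×FAD-PBS, and 0.198% and 0.0882% in WT-PBS as shares of kept barcodes. Among these 5×FAD-PBS overlapped both other groups, and 5×FAD-Aβ3FTnAu differed from 5×FAD-PBS by -0.01 ± 0.57 (edgeR adjusted p = 0.983) and from WT-PBS by 0.65 ± 0.57 (adjusted p = 0.393).

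**Figure D3:**
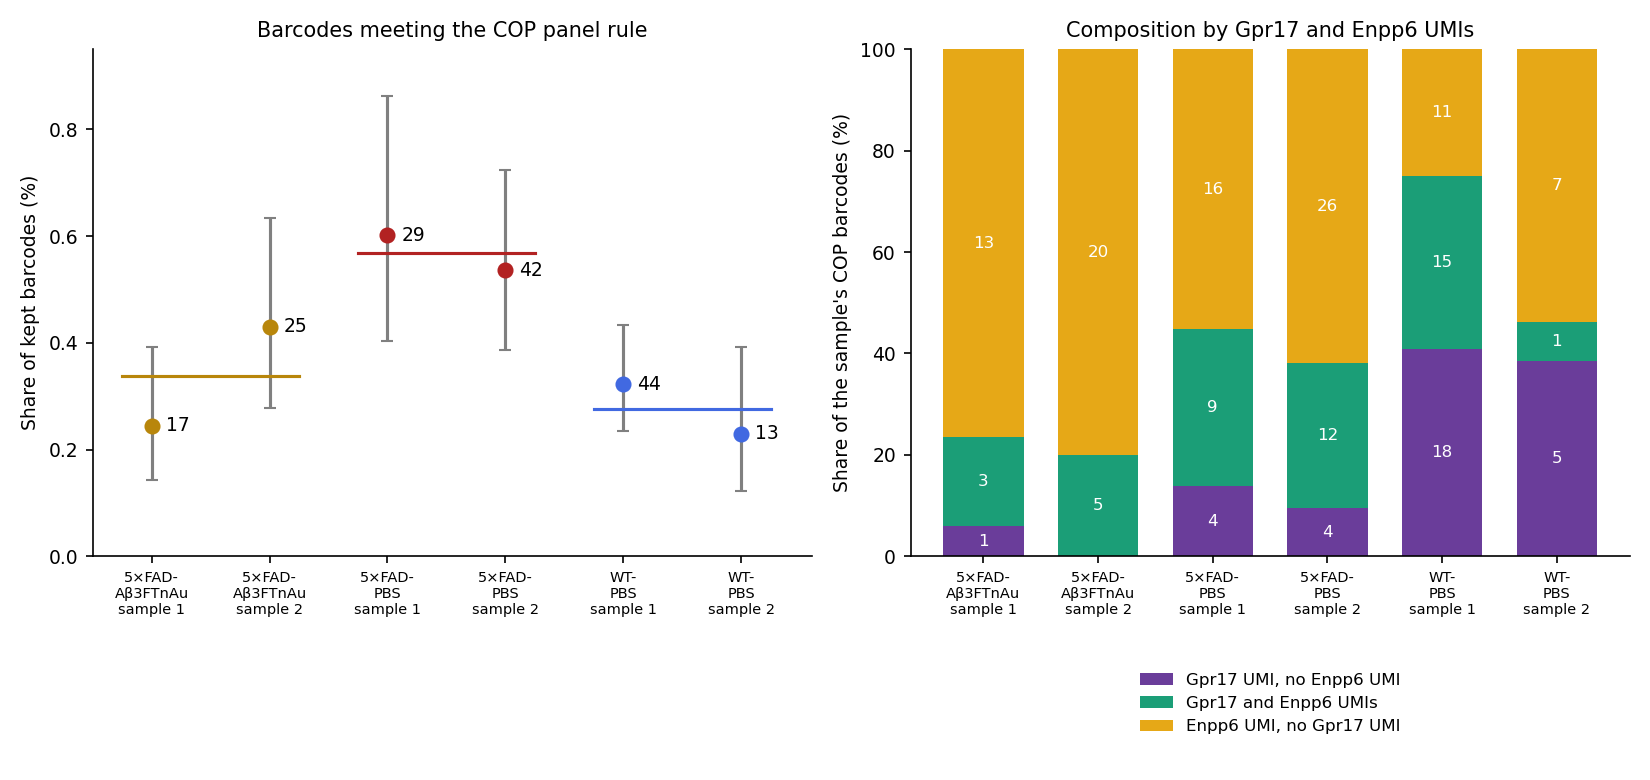
Left, COP as a percentage of kept barcodes in each sample, with exact 95% intervals as bars, the barcode count beside each point and the group mean as a line. Right, the percentage of each sample's COP barcodes with Gpr17 alone, both genes and Enpp6 alone, with counts inside the bars: Gpr17-positive barcodes are 23.5% and 20% in 5×FAD-Aβ3FTnAu and 75% and 46.2% in WT-PBS.

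The makeup of COP differed between samples. Gpr17-positive barcodes were 4 of 17 and 5 of 25 in 5×FAD-Aβ3FTnAu (23.5% and 20%), 13 of 29 and 16 of 42 in 5×FAD-PBS (44.8% and 38.1%), and 33 of 44 and 6 of 13 in WT-PBS (75% and 46.2%). The groups did not overlap, and each pair had p = 0.333 in an exact permutation test, the smallest possible. Gpr17 and Enpp6 UMIs chose the members, so these shares are a description only, with as few as 4 Gpr17-positive barcodes in a sample. As shares of kept barcodes, Gpr17-positive COP were 0.0576% and 0.0859% in 5×FAD-Aβ3FTnAu, 0.270% and 0.204% in 5×FAD-PBS, and 0.242% and 0.106% in WT-PBS. Enpp6-only COP were 0.187% and 0.344%, 0.332% and 0.332%, and 0.0806% and 0.124%.

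With the 2 kinds as classes of their own in the share fit, chosen after seeing the data, no adjusted p was under 0.05. These kinds are cut on genes of the rule, so the values are a description too. For Enpp6-only barcodes, 5×FAD-Aβ3FTnAu differed from WT-PBS by 1.43 ± 0.57 (edgeR adjusted p = 0.1000), from 5×FAD-PBS by -0.34 (adjusted p = 0.529), and 5×FAD-PBS differed from WT-PBS by 1.76 ± 0.56 (adjusted p = 0.0501). For Gpr17-positive barcodes, 5×FAD-Aβ3FTnAu differed from 5×FAD-PBS by -1.69 ± 0.65 (adjusted p = 0.0604) and from WT-PBS by -1.38 ± 0.64 (adjusted p = 0.126), and 5×FAD-PBS differed from WT-PBS by 0.31 (adjusted p = 0.702). The share of members that also met the mature rule was 11.8% and 36% in 5×FAD-Aβ3FTnAu, 41.4% and 59.5% in 5×FAD-PBS, and 22.7% and 46.2% in WT-PBS. The 5×FAD groups did not overlap each other, and WT-PBS overlapped both.

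Gene levels within COP were compared over 1780 genes in 1 edgeR fit of the 6 samples, leaving out the 7 genes of the COP rule. For 5×FAD-Aβ3FTnAu against 5×FAD-PBS 0 genes passed (0%), with 117 at an unadjusted p under 0.05 and 0 by DESeq2. Against WT-PBS, 5×FAD-Aβ3FTnAu had 25 genes past the threshold (1.40%), 12 higher (0.674%) and 13 lower (0.730%), and DESeq2 called 7. For 5×FAD-PBS against WT-PBS 0 genes passed (0%), with 170 at an unadjusted p under 0.05 and 0 by DESeq2. These comparisons share samples. In tests on simulated data with the same sums, the test recovered 56% of 4-fold changes and 9% of 2-fold changes between 5×FAD-Aβ3FTnAu and WT-PBS. Recovery was 52% and 11% between 5×FAD-Aβ3FTnAu and 5×FAD-PBS, and 71% and 10% between 5×FAD-PBS and WT-PBS. Changes were planted only in the better-counted genes, so recovery over all tested genes may be lower.

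**Figure D4:**
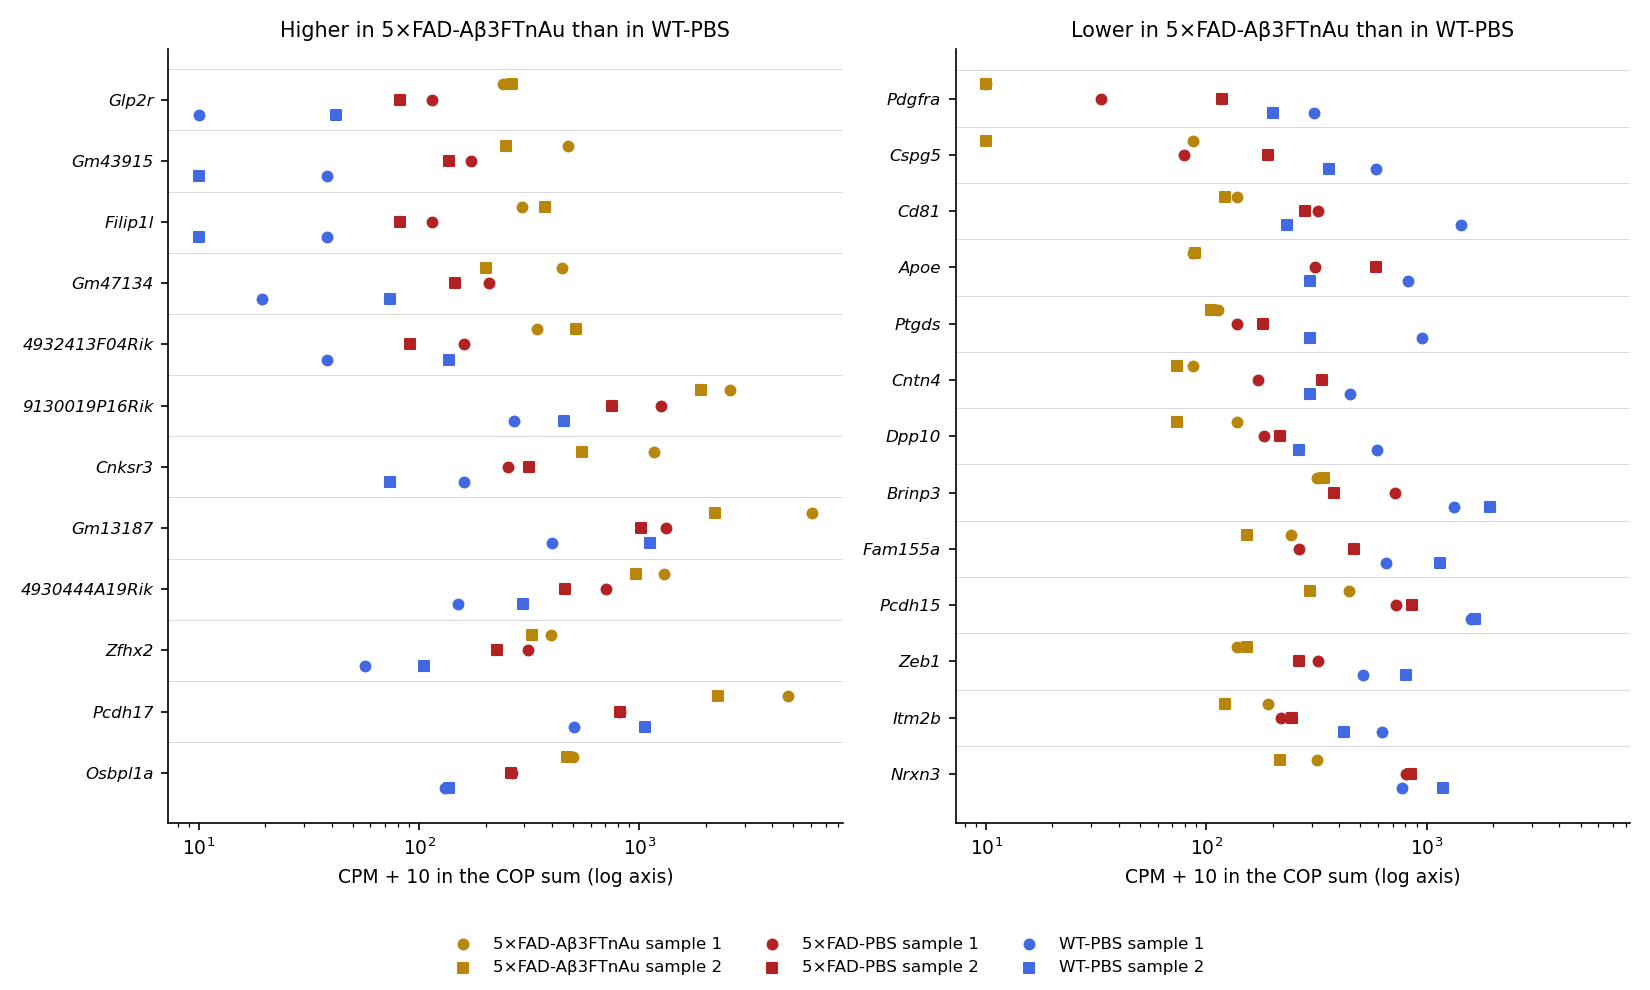
CPM + 10 in the COP sum of each sample (x axis, log scale) for the 12 genes higher and the 13 lower in 5×FAD-Aβ3FTnAu than in WT-PBS, with circles for sample 1 and squares for sample 2. Pcdh15, for example, is at 436 and 285 CPM in 5×FAD-Aβ3FTnAu against 1574 and 1649 CPM in WT-PBS. The 25 genes were called on these same samples, so the lack of overlap between the 2 groups adds no support.

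The genes lower in 5×FAD-Aβ3FTnAu than in WT-PBS included OPC genes. Members that also met the OPC rule numbered 0 and 0 in 5×FAD-Aβ3FTnAu, 1 and 3 in 5×FAD-PBS, and 9 and 2 in WT-PBS. Pdgfra and Pcdh15 are genes of that rule, so their levels are not independent of these counts. The part of such members in the lower OPC genes was not tested. Pdgfra, the growth factor receptor of OPC, had 0 UMIs in both 5×FAD-Aβ3FTnAu samples, 23.1 and 108 CPM in 5×FAD-PBS, and 298 and 190 CPM in WT-PBS, where 38 UMIs were counted, so it was at least 9.31-fold lower (3 counts taken as the group's floor, edgeR adjusted p = 0.0432). Pcdh15 (10: 73099342 to 74649737), a protocadherin, had 436 and 285 CPM in 5×FAD-Aβ3FTnAu, 717 and 845 in 5×FAD-PBS, and 1574 and 1649 in WT-PBS (log2 -2.22 ± 0.40, adjusted p = 0.0332). Brinp3 had 308 and 332 CPM, 705 and 369, and 1322 and 1935 in the same order (-2.35 ± 0.44, adjusted p = 0.0332). In both genes the 5×FAD-PBS samples lay between the other groups. Cspg5, a proteoglycan, had 3 UMIs in 5×FAD-Aβ3FTnAu and 73 in WT-PBS (17.9-fold lower, exact 95% interval 5.89 to 88.8).

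Others that fell were Zeb1, a zinc-finger repressor, at 128 and 142 CPM in 5×FAD-Aβ3FTnAu against 503 and 793 in WT-PBS, Nrxn3, a neurexin, at 308 and 206 against 763 and 1174, and Cntn4, Dpp10, Fam155a, Itm2b and Cd81. Apoe had 77.0 and 79.1 CPM in 5×FAD-Aβ3FTnAu, 301 and 576 in 5×FAD-PBS, and 810 and 285 in WT-PBS (-2.96 ± 0.62, adjusted p = 0.0408). Ptgds had 103 and 95, 127 and 171, and 940 and 285 CPM. For Apoe, Ptgds, Cd81 and Dpp10 the WT-PBS samples differed more than 2-fold between themselves. Of the 13 genes that fell, 11 were tested in the other comparisons, of which 8 were below OPC (14.9% of all tested genes were) and 7 were higher in Gpr17-positive barcodes (12.1% of all tested genes were). Those shares are over 6412 and 1059 genes, not over the 1780 of the group fit. The comparisons use the same COP barcodes, so the overlap is a description and not independent support.

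The genes higher in 5×FAD-Aβ3FTnAu were mostly ones highest in COP, a pattern of 3.88% of the 6412 genes tested between classes. The COP levels that set that pattern include these 5×FAD-Aβ3FTnAu samples, so the 2 properties are not independent. Gm13187 had 6055 and 2184 CPM in 5×FAD-Aβ3FTnAu, 1307 and 1007 in 5×FAD-PBS, and 391 and 1110 in WT-PBS (2.54 ± 0.56, edgeR adjusted p = 0.0447). Its host locus Frmd4a had 12135 and 6157 CPM, 5931 and 5873, and 4255 and 3679, and did not pass (1.18, adjusted p = 0.120). Pcdh17, a protocadherin, had 4695 and 2263, 809 and 809, and 493 and 1047 CPM (2.22 ± 0.47, adjusted p = 0.0408). Cnksr3 had 1154 and 538 CPM, 243 and 306, and 149 and 63.4 (2.69 ± 0.52, adjusted p = 0.0332). The non-coding 9130019P16Rik (6: 54269681 to 54430221) had 2565 and 1884, 1237 and 738, and 261 and 444 CPM (2.72 ± 0.45, adjusted p = 0.0332).

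In Gm13187, Pcdh17, Cnksr3 and 9130019P16Rik, sample 1 of 5×FAD-Aβ3FTnAu had the highest value of the 6. The other genes that rose were 4930444A19Rik, 4932413F04Rik, Gm47134, Gm43915, Zfhx2, Filip1l, Glp2r and the lipid transfer gene Osbpl1a. Osbpl1a had 487 and 459 CPM in 5×FAD-Aβ3FTnAu, 254 and 252 in 5×FAD-PBS, and 121 and 127 in WT-PBS, with little spread within any group (1.89 ± 0.43, adjusted p = 0.0447). Glp2r, the receptor for glucagon-like peptide 2, had 25 UMIs in 5×FAD-Aβ3FTnAu against 1 in WT-PBS (ratio 34.0, exact 95% interval 5.57 to 1396). Of the 12 genes that rose, 11 were above OPC (13.4% of all tested genes were), and 1, Osbpl1a, was lower in Gpr17-positive barcodes (18.2% of all tested genes were). These shares too are over 6412 and 1059 genes, and the comparisons use the same COP barcodes.

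The share of Gpr17-positive barcodes among COP also did not overlap between the groups, although no test of it passed. That share is cut on a gene of the rule and is a description only. The astrocyte list was also lower in both 5×FAD-Aβ3FTnAu samples (103 and 111 CPM) than in WT-PBS (326 and 222 CPM), with all 8 of its genes detected in COP, and its part in the lower Apoe, Cd81 and Itm2b was not tested. Among Enpp6-only barcodes, a comparison added after seeing the data, 13 of the 25 genes could be tested, all 13 kept their direction and 0 passed, of 720 genes with 0 called. These barcodes are part of those on which the 25 genes were called, so a kept direction or size is not independent support. Several differences were about as large there as in all COP, such as Cd81 (log2 -2.90, against -2.97 in all COP), Zfhx2 (2.45 and 2.47), 9130019P16Rik (2.56 and 2.72), Cnksr3 (2.46 and 2.69) and Pcdh17 (1.92 and 2.22). Smaller ones were those of Pcdh15 (-0.58 and -2.22), Apoe (-1.89 and -2.96) and Osbpl1a (0.99 and 1.89). Without the members that also met the OPC or mature rule, 12 of 24 tested genes were called again. Among barcodes with no mitochondrial UMI 16 could be tested, all 16 kept their direction and 0 passed. These barcodes too are part of those on which the genes were called. Without the WT-PBS sample 1, 12 of the 25 were called again, and without the 5×FAD-Aβ3FTnAu sample 2, 17 were.

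By list, 2 of 13 tested OPC genes fell in 5×FAD-Aβ3FTnAu against WT-PBS and 0 rose (median log2 -1.22, against -0.01 over all tested genes), 1 of 20 premyelinating genes rose and 0 fell (median 0.80), and 1 of 23 myelin genes fell and 0 rose (median 0.33). Over all 1780 tested genes 0.674% rose and 0.730% fell. The 2 OPC genes that fell, Pdgfra and Pcdh15, are genes of the OPC rule. In the comparisons with 0 called genes no list member was called. The summed premyelinating list was 42202 and 26165 CPM in 5×FAD-Aβ3FTnAu, 24003 and 21937 in 5×FAD-PBS, and 19050 and 15795 in WT-PBS, so the groups did not overlap. The 4 genes of the OPC marker panel summed to 1129 and 760, 1214 and 1448, and 2877 and 2252 CPM, also without overlap. The OPC list of 30 genes summed to 18856 and 14895, 15042 and 12988, and 19199 and 18681 CPM, with 5×FAD-Aβ3FTnAu overlapping both other groups. Myelin genes summed to 12879 and 18171, 16303 and 19688, and 12094 and 15319 CPM, with 5×FAD-Aβ3FTnAu overlapping both other groups. Disease-associated oligodendrocyte genes summed to 924 and 1884, 2324 and 2626, and 5074 and 1966 CPM, with the WT-PBS samples on either side of 5×FAD-PBS.

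Genes with the smallest p in the comparisons without calls were Pcdh17 (2.08 ± 0.45), the long non-coding RNA Meg3 (-1.98), Nrxn3 (-1.74), Apoe (-2.52) and the non-coding Gm38505 (-2.37) for 5×FAD-Aβ3FTnAu against 5×FAD-PBS, with edgeR adjusted p from 0.423. For 5×FAD-PBS against WT-PBS they were Mmp16, a membrane metalloproteinase (-2.51 ± 0.52), the non-coding A230001M10Rik, which was higher with 52 UMIs against 2 (ratio 18.3, exact 95% interval 4.81 to 155), Ptgds (-2.17), the RNA-binding gene Khdrbs2 (-1.58) and Brinp3 (-1.59), with adjusted p from 0.249. Meg3 belongs to the neuron list, which without the rule genes summed to 410 and 317 CPM in 5×FAD-Aβ3FTnAu and 856 and 989 in 5×FAD-PBS. The part of neuronal RNA in the lower Meg3 was not tested. Without the WT-PBS sample 2, the counts of genes called were 24 for the first of these comparisons and 66 for the second.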

How the data were processed

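Single-cell 10x Genomics 3′ libraries (v3.1 chemistry, per the labels) were analysed from raw UMI counts per gene and barcode, deposited by the authors as matrices. Per the file headers, Cell Ranger 7.1.0 wrote them, on mm10, per the submitters' processing notes, which also name Seurat 4.3.0.1. Intron and strand settings are not stated. Barcodes were kept from 500 genes and 1000 UMIs upward if no more than 15% of UMIs were mitochondrial. Doublets were scored with Scrublet (scanpy 1.11.5) and the top 0.8% per 1000 barcodes marked. They marked 3 COP barcodes, which were kept and left out in an alternative.

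COP, OPC and mature oligodendrocytes were set by marker UMIs, not by clustering. The members and gene lists were chosen with earlier results of these data known. Class sums per sample were tested with edgeR 4.0.16 in R 4.3.3 (TMM, filterByExpr, quasi-likelihood F test, Benjamini-Hochberg 0.05). SE was derived from the fold change and F. Folds against 0 UMIs use a floor of 3 counts over the group, and ratios with 1 to 3 counts carry exact intervals, which cover counting error only. The planned contrast of Gpr17-only with Enpp6-only barcodes could be made in the WT-PBS samples alone. It recovered 0% of genes in tests on simulated data and was not relied on. Named genes were the largest changes with samples moving alike at a mean of at least 100 CPM (50 CPM between groups), the smallest p of each list, and set stage markers. Genes named outside that rule (Frmd4a and the remaining called genes between groups) were chosen after their values were seen. Coordinates are those of GENCODE on GRCm38. The replicate numbers did not pair the samples. Alternatives were DESeq2 1.42.0, other scaling, no filter, stricter members, the replicate block and leaving out each sample.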

Additional observations from a re-analysis of the deposited data

How the results depend on the processing

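No COP share passed the threshold under any alternative run. As a share of the oligodendrocyte lineage, the log2 difference of 5×FAD-Aβ3FTnAu from 5×FAD-PBS reversed to 0.26. Leaving out each sample gave -0.22 to 0.59 for 5×FAD-Aβ3FTnAu against WT-PBS. Against OPC, 1817 genes were called, 797 with barcodes without mitochondrial UMIs alone and 1146 with Gpr17-positive barcodes alone. Against mature oligodendrocytes, 1817 were called, 872 in barcodes without mitochondrial UMIs and 2451 with Gpr17-positive barcodes alone. For 5×FAD-Aβ3FTnAu against WT-PBS the count of 25 became 7 with DESeq2, 50 without a filter, 0 in barcodes without mitochondrial UMIs, 0 in Enpp6-only barcodes, and 28 to 171 when each sample was left out (45 and 60 without 5×FAD-Aβ3FTnAu sample 1 and 2, 55 and 41 without 5×FAD-PBS sample 1 and 2, 28 and 171 without WT-PBS sample 1 and 2). For 5×FAD-Aβ3FTnAu against 5×FAD-PBS the count of 0 became 9 without a filter and 0 to 24 when each sample was left out (above 0 without either sample of 5×FAD-Aβ3FTnAu or WT-PBS or without 5×FAD-PBS sample 1). For 5×FAD-PBS against WT-PBS, 0 became 1 and 0 to 66 (above 0 without either 5×FAD-Aβ3FTnAu sample, 5×FAD-PBS sample 1 or WT-PBS sample 2). The planned contrast of Gpr17-only with Enpp6-only barcodes called 158 genes, 34 with DESeq2 and 87 with RLE factors, and 321 came from any Gpr17 over 6 samples. The causes were not tested. The replicate block gave 34 genes for 5×FAD-Aβ3FTnAu against WT-PBS, with all 25 among them, and share differences of -0.76 from 5×FAD-PBS and 0.21 from WT-PBS, and 0.97 for 5×FAD-PBS against WT-PBS. Deviations of same-numbered samples correlated at 0.07, 0.11 and -0.02, so the numbers were not taken as pairs. Of the named genes, 41 of 46 kept their call against OPC under every alternative run, 42 of 48 against mature oligodendrocytes, 8 of 18 in the planned contrast and 0 of 20 between 5×FAD-Aβ3FTnAu and WT-PBS, without a change of sign. Comparisons of Enpp6-only or Gpr17-positive barcodes were chosen after seeing the data. For the planned contrast, stricter members and barcodes without mitochondrial UMIs could not be tested, and leaving out a sample leaves no residual degrees of freedom and was not run. Between groups, sums of 13 to 44 barcodes limit what can be called.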
